A study of Mus musculus with 6 samples.

Results

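The unfolded protein response was followed through 10 genes, 4 that encode its sensors (Ern1, Ern2, Atf6 and Eif2ak3), the transcription factor gene Xbp1, and 5 targets of XBP1 and ATF6 (Herpud1, Sdf2l1, Manf, Creld2 and Edem1). They were chosen with earlier results of these data known and matched by symbol. All 10 had a row among the 24956 genes of the table. RNA came from intestinal organoids, epithelial cultures grown in organoid medium, with the genotype Apc Min in every sample. Apc Min is a truncating mutation of Apc, the gene of a scaffold protein that restrains Wnt signalling. The labels form 2 groups of 3 libraries, one called control treatment and the other treated with DM-aKG, a membrane-permeable ester of the metabolite alpha-ketoglutarate. The dose, the duration, what the controls received, the animals' age and whether the replicates came from separate mice are not stated in the sources used here, so p-values measure the spread between these libraries only.

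Secreted and membrane proteins fold in the endoplasmic reticulum (ER), and 3 kinds of membrane sensor report on unfolded protein there. IRE1 is a kinase and RNase that removes a short intron from Xbp1 mRNA, which lets the mRNA encode an active transcription factor. ATF6 travels to the Golgi, where proteases release its transcription factor domain, and PERK phosphorylates the translation factor eIF2 alpha, which slows translation while favouring that of ATF4. The gut epithelium expresses a second IRE1, IRE1 beta, encoded by Ern2 and known from mucus-producing goblet cells, and goblet and Paneth cells depend on XBP1 for their secretory load.

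Xbp1 mRNA is shown at the site that IRE1 cuts, since a value per gene cannot separate the spliced from the unspliced form. IRE1 cuts between the middle G and C of each of a pair of CNGCAG hairpin loops. A search for such a pair with cut points 26 bases apart found this stretch in 3 of 3 protein-coding Xbp1 models of GENCODE M21 (GRCm38), with the 26 bases that leave the mRNA in capitals. The same search found 1 other stretch, in 1 of the 3 models; the one shown is the known site.
Xbp1: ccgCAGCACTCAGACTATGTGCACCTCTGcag
The removed length is no multiple of 3 (2 bases are left over), so splicing shifts the reading frame.

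Promoters were searched on both strands, in the 250 bases before each start, for the ER stress response element ERSE (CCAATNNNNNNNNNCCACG), for ERSE-II (ATTGG, any 1 base, CCACG) and for a core of the XBP1 element UPRE (TGACGTGG). RefSeq promoters (GRCm38.p6) were matched for 7 of the 10 genes; Ern2, Atf6 and Manf had none in the table. ERSE was present in 37 of 32851 promoters (0.113%), ERSE-II in 10 (0.0304%) and the UPRE core in 185 (0.563%). Of the 7 genes, 2 held a match, Herpud1 an ERSE-II and Creld2 an ERSE. The letters of these motifs were not found in the windows of Xbp1, Ern1, Eif2ak3, Sdf2l1 and Edem1. Both matching windows are shown because they are the members with a motif, with the fixed letters of the motif in capitals. The Herpud1 window is chr8:94386179-94386428 on the plus strand, with the match 52 to 42 bases before the start. The Creld2 window is chr15:88819396-88819645 on the plus strand, with the match 126 to 108 bases before the start, on the opposite strand.
Herpud1: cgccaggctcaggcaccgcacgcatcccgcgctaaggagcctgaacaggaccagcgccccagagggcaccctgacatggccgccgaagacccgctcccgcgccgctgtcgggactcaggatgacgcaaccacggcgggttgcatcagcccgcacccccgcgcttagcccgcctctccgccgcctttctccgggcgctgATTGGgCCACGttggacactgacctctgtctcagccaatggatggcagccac
Creld2: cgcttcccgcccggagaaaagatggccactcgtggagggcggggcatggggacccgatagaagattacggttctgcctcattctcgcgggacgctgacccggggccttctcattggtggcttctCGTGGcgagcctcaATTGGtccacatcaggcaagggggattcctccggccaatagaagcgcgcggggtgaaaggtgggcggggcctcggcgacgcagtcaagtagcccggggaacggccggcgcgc
A match is a description of the letters, not a measured binding site.

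Values are RPKM (reads scaled by gene length and library size), at an estimated depth of 32670000 to 34280000 reads per library. Groups were compared with limma on log2(RPKM + 0.5), with Benjamini-Hochberg adjustment across the 10852 genes with a mean of at least 1 RPKM, and "rose" and "fell" are kept for an adjusted p under 0.05. Of those genes 3354 were higher and 2679 lower in DM-aKG (2790 and 3340 when each library was centred on its median), and the median log2 fold change was 0.02. A pair of libraries stood somewhat apart. Control replicate 2 was highest among the controls in several stress genes, and DM-aKG replicate 1 was higher in Paneth cell markers, with a summed level over 11 Paneth markers of 1697 RPKM against 722 and 749 in the other DM-aKG libraries. Epithelial genes were abundant in every library (Vil1, a microvillus protein gene, at 181 to 217 RPKM). Defining genes of other lineages were near 0: 9 of 10 fibroblast and muscle markers and 8 of 10 immune markers stayed under 1 RPKM in every library, as did all 8 endothelial and glial markers, and Col3a1, Dcn, Cdh5, Kdr and Cldn5 were listed at 0 throughout.

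All 10 genes passed the filter on low values, Ern2 only through its level in the controls. Ern2 had to be lower in DM-aKG for this reason, so its place among the lower genes is no support. Of the 10, 1 was higher in DM-aKG (Ern1), 4 were lower (Ern2, Xbp1, Sdf2l1 and Manf) and 5 did not pass the threshold. The 5 calls, 50% of the genes, stand against 55.6% called among all tested genes, a share near the background. By direction, 10% of the 10 were higher and 40% lower, against 30.9% and 24.7% of all tested genes. In 8 of the 10 the groups did not overlap (80%), against 64.2% of all tested genes. Of these 8, the DM-aKG libraries were above the controls in 2 and below in 6, against 35.3% and 28.9% of all tested genes. The median log2 fold change over the 10 was -0.14.

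**Figure D1:**
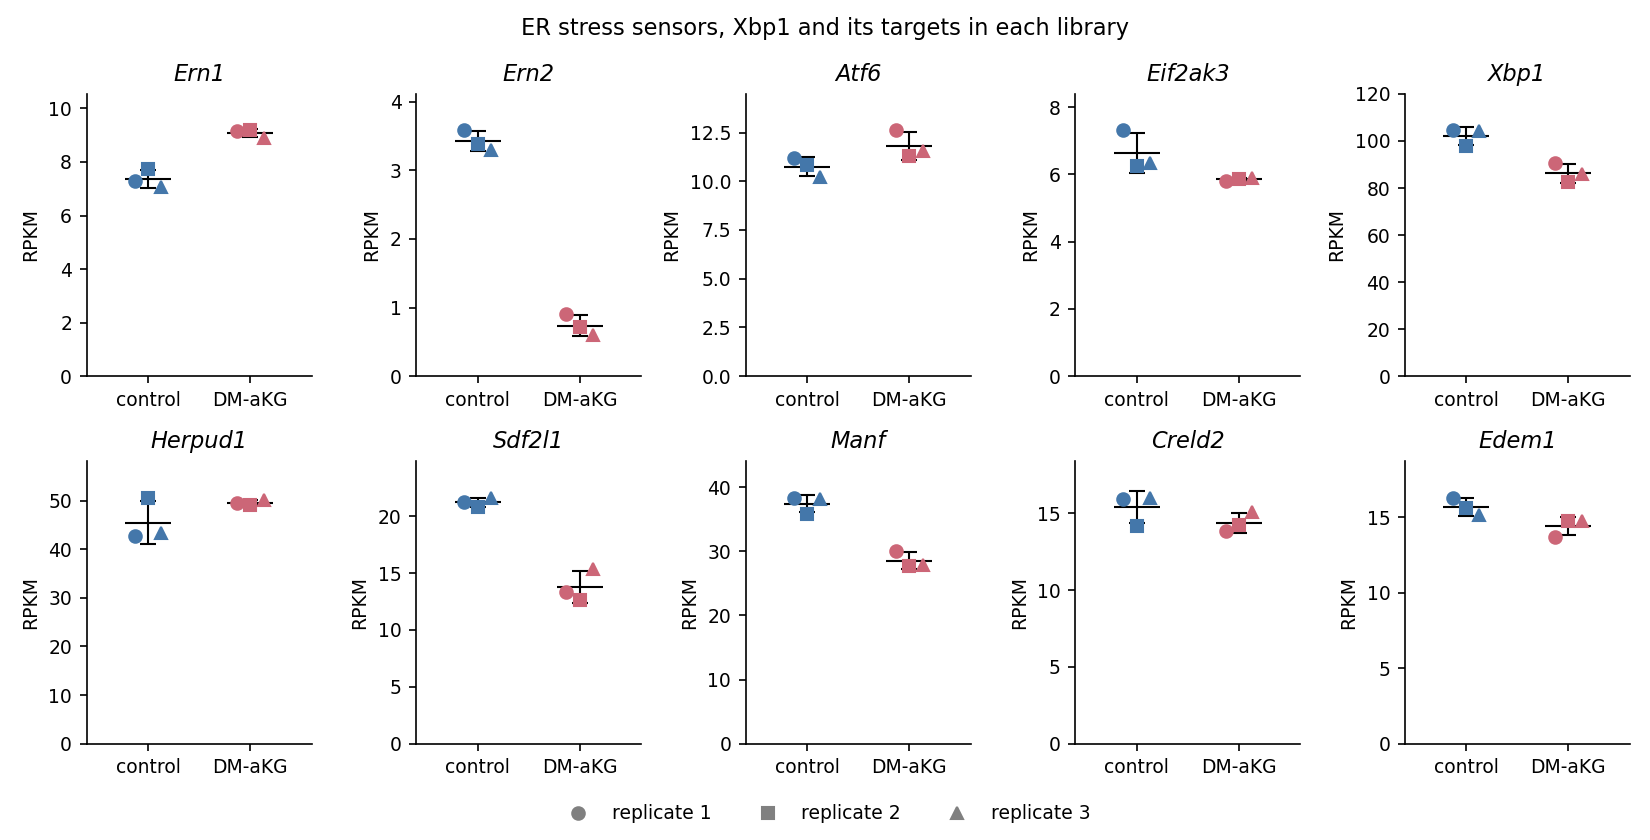
RPKM of each gene (vertical axes, each from 0) in 3 control and 3 DM-aKG libraries, with symbols for the replicate number and the mean and SD of each group as bars. The 3 DM-aKG libraries of Ern2 sit at 0.60 to 0.90 RPKM, below 3 controls at 3.30 to 3.58, while the groups of Herpud1 and Creld2 overlap.

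The 2 genes of IRE1 moved in opposite directions. Ern2, the gene of IRE1 beta, was at 3.58, 3.38 and 3.30 RPKM in control replicates 1, 2 and 3 and at 0.90, 0.71 and 0.60 RPKM in the DM-aKG replicates. Every DM-aKG library lay far below every control. The mean fell from 3.42 ± 0.144 to 0.737 ± 0.152 RPKM (SD, n = 3 per group, as throughout), 21.5% of the control level, a log2 fold change of -1.67 ± 0.10 (SE; adjusted p = 2.16e-05, limma). With the pseudocount of 0.5 the log2 value understates the change of a gene this low; with 0.1 it was -2.09. At an exon length of 2964 bases in GENCODE, the libraries held about 58.1 to 349.7 reads of Ern2. Since Ern2 passed the filter only through the controls, it had to differ and its test is no support. Ern1, the gene of the broadly expressed IRE1 alpha, was at 7.30, 7.75 and 7.08 RPKM in the controls and at 9.15, 9.18 and 8.91 RPKM in DM-aKG. The groups did not overlap, and the mean rose from 7.38 ± 0.342 to 9.08 ± 0.148 RPKM, a log2 fold change of 0.28 ± 0.05 (adjusted p = 0.00222, limma).

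RPKM is scaled by gene length, so the levels of both genes can be set side by side, within the lengths used. The annotation behind these lengths is not stated. The percentages and the sum of both genes depend on it, while the change in their ratio does not. The Ern2 level was 46.4% ± 2.72 of the Ern1 level in control and 8.10% ± 1.58 in DM-aKG. The log2 ratio of Ern2 to Ern1 went from -1.11 ± 0.08 to -3.64 ± 0.28, lower in 3 of 3 DM-aKG libraries (exact permutation test over libraries, two-sided p = 0.1, the smallest that 3 against 3 can give). The sum of the levels of both genes was 10.8 ± 0.382 RPKM in control and 9.82 ± 0.277 RPKM in DM-aKG, again with no overlap between groups (exact permutation test, p = 0.1). The ratio and the sum both contain Ern2, which passed the filter only through the controls, so their tests are no support.

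Markers of the cells in which Ern2 is known were mostly lower too. The summed level of 13 goblet cell markers was 2109 to 2269 RPKM in the controls and 708 to 1005 RPKM in DM-aKG, and 9 of the 11 tested were lower (81.8%, against 24.7% of all tested genes) and 0 higher. Muc2, the main gel-forming mucin, was at 22.4% of its control level, Agr2, an ER disulfide isomerase needed for mucin folding, at 29.8%, and the goblet transcription factor Spdef at 20.8%. Atoh1, the transcription factor that sets the secretory fate, was at 37.4%, and the trefoil factor gene Tff3 at 36.8%. Spdef and another of the 9, Creb3l4, passed the filter on low values only through the controls. Both had to be lower, so their tests are no support. The 2 markers that did not pass had higher means in DM-aKG with overlapping groups, Clca1 at 9.89 ± 2.25 and 12.4 ± 1.89 RPKM and Zg16 at 37.0 ± 4.88 and 41.6 ± 20.5 RPKM. In 2 of the alternatives, the replicate block and control replicate 1 left out, 1 goblet marker was called higher. In DM-aKG replicate 1 Muc2, Agr2, Spdef, Atoh1 and Tff3 were higher than in the other DM-aKG libraries, at 29.6% to 44.0% of the control mean, and so was Ern2, at 26.3% against 20.8% and 17.5%. The lysozyme gene Lyz1 of Paneth cells was at 71.9% in that library and at 35.5% and 34.9% in the others. The part of goblet and Paneth cells in the Ern2 result was not tested, and in these bulk samples fewer cells of a type and less RNA per cell cannot be told apart. With DM-aKG replicate 1 left out, Ern2 stood at -1.76 on the log2 scale (adjusted p = 3.61e-06, limma). Over its 17 alternatives the adjusted p was 1.57e-07 to 3.57e-04 (limma). Where the filter was applied, these tests are no support, since Ern2 passed it only through the controls.

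**Figure D2:**
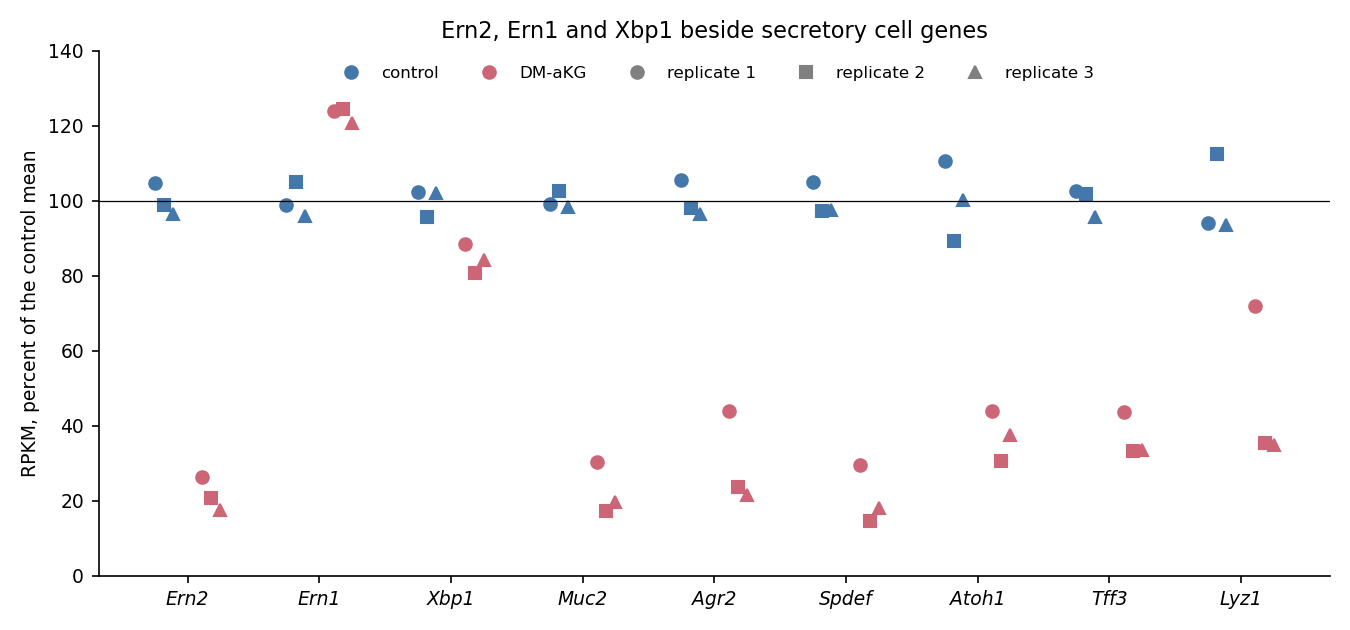
RPKM of Ern2, Ern1, Xbp1 and 6 genes of goblet and Paneth cells in each library, as a percent of the gene's control mean (vertical axis). Colours mark the group and symbols the replicate number; Ern2 stands at 17.5% to 26.3% in DM-aKG beside Muc2 at 17.2% to 30.3%, while Ern1 stands at 121% to 124% and Xbp1 at 80.7% to 88.5%.

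The other 2 sensors did not pass the threshold, although their groups did not overlap. Atf6 was at 11.2, 10.9 and 10.2 RPKM in the controls and at 12.6, 11.3 and 11.6 RPKM in DM-aKG. The DM-aKG libraries were all slightly higher, with a log2 difference of 0.13 ± 0.06 (adjusted p = 0.0880, limma). Eif2ak3, the gene of PERK, was at 7.31, 6.26 and 6.34 RPKM in the controls and at 5.81, 5.86 and 5.88 RPKM in DM-aKG. Control replicate 1 stood above the other controls, and the log2 difference was -0.17 ± 0.07 (adjusted p = 0.0632, limma). Both values lay close enough to the threshold for the settings of the fit to decide them. With array weights both passed (adjusted p = 0.0256 for Atf6 and 0.0482 for Eif2ak3, limma). Eif2ak3 also passed with median centring (0.0217) and with control replicate 2 and DM-aKG replicate 1 both left out (0.0404). Atf6 passed when libraries were scaled to an equal RPKM sum (adjusted p = 0.0383, limma; 0.0256 to 0.267 over 18 alternatives). Eif2ak3 passed under quantile normalization (adjusted p = 0.0343, limma; 0.0217 to 0.1801 over 18 alternatives).

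Xbp1 was the most abundant of the 10 genes and fell slightly. It was at 105, 97.8 and 104 RPKM in the controls and at 90.5, 82.5 and 86.0 RPKM in DM-aKG, without overlap. The mean fell from 102 ± 3.85 to 86.3 ± 4.01 RPKM, a log2 fold change of -0.24 ± 0.05 (adjusted p = 0.00436, limma). The call held under all 18 alternatives, with adjusted p-values of 5.75e-05 to 0.0249. The table gives 1 value per gene, so how much of this mRNA had lost the 26 bases printed above was not measured.

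**Figure D3:**
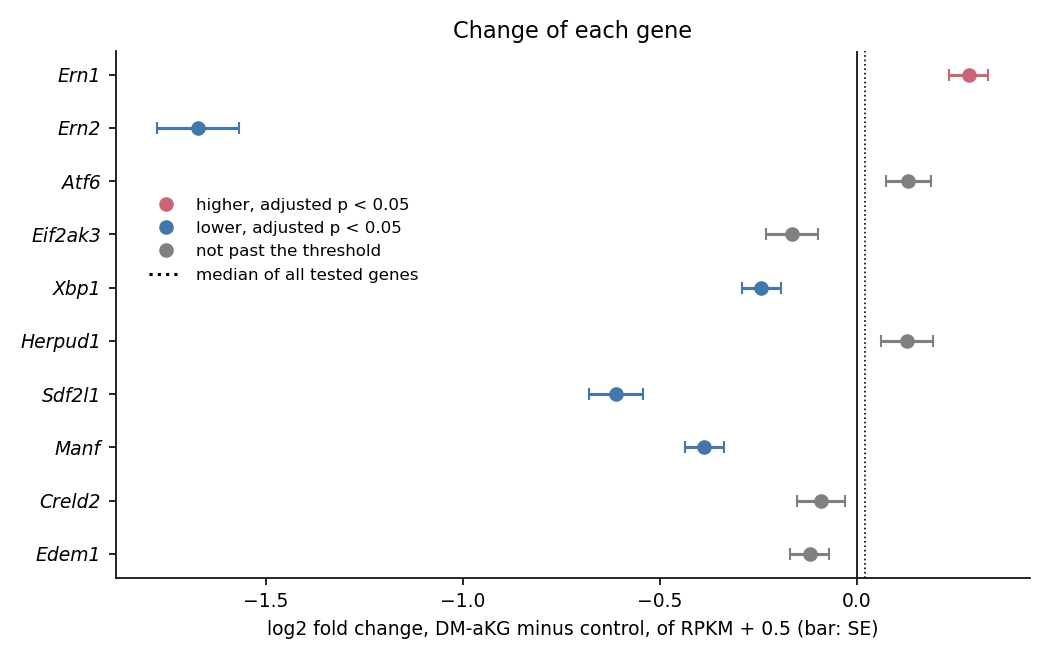
log2 fold change of each gene, DM-aKG minus control (horizontal axis, bars are SE), coloured by the limma call, with the median of all tested genes as a dotted line. Ern2 lies at -1.67, Sdf2l1 at -0.61 and Manf at -0.39, and the other 7 genes lie between -0.24 and 0.28.

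Among the targets, Sdf2l1 and Manf fell and the other 3 did not pass the threshold. Sdf2l1, an ER protein that works with the chaperone machinery, was at 21.3, 20.8 and 21.6 RPKM in the controls and at 13.3, 12.6 and 15.3 RPKM in DM-aKG. All 3 DM-aKG libraries were lower, and the gene fell to 64.8% of its control level, a log2 fold change of -0.61 ± 0.07 (adjusted p = 2.94e-04, limma). Manf, a small ER protein that is retained or secreted according to ER calcium, was at 38.3, 35.9 and 38.2 RPKM in the controls and at 30.0, 27.7 and 27.9 RPKM in DM-aKG. It fell to 76.2% of its control level, a log2 fold change of -0.39 ± 0.05 (adjusted p = 4.83e-04, limma), with no overlap. Exons of Manf share 146 bases with Dcaf1 and 166 with 4930524O07Rik, both on the other strand, and 14 with Rbm15b on the same strand, and the strand setting of the counting is not given, so a small part of its reads is uncertain.

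Herpud1, a membrane scaffold of ER-associated degradation, was at 42.7, 50.6 and 43.3 RPKM in the controls and at 49.4, 49.1 and 50.2 RPKM in DM-aKG. Control replicate 2 lay above all 3 DM-aKG libraries, and the log2 difference was 0.13 ± 0.07 (adjusted p = 0.138, limma). Without control replicate 2 the difference was 0.20 and passed (adjusted p = 0.00827, limma; 0.00183 to 0.396 over 18 alternatives). Creld2, an ER protein with disulfide isomerase activity, was at 16.0, 14.2 and 16.0 RPKM in the controls and at 13.9, 14.2 and 15.1 RPKM in DM-aKG. The groups overlapped, with a log2 difference of -0.09 ± 0.06 (adjusted p = 0.234, limma). Edem1, a lectin-like protein that sends misfolded glycoproteins to degradation, was at 16.3, 15.6 and 15.2 RPKM in the controls and at 13.7, 14.7 and 14.8 RPKM in DM-aKG. The DM-aKG libraries were all lower, by 0.12 ± 0.05 on the log2 scale, which did not pass (adjusted p = 0.0724, limma; 0.0164 to 0.2105 over 18 alternatives). Edem1 was called lower with median centring (-0.17, adjusted p = 0.0220, limma) and with quantile normalization (-0.18, adjusted p = 0.0164, limma).

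The order of levels among the 10 genes was much the same in both groups. In control, Xbp1 was followed by Herpud1, Manf, Sdf2l1, Edem1, Creld2, Atf6, Ern1, Eif2ak3 and Ern2, and the ranges of neighbours overlapped for Edem1 with Creld2 and for Ern1 with Eif2ak3. In DM-aKG, Sdf2l1 stood behind Edem1 and Creld2, with overlapping ranges among these 3, and the ranges of Ern1 and Eif2ak3 were apart, at 8.91 to 9.18 and 5.81 to 5.88 RPKM. Ern2 was lowest in both groups.

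The wider set of ER folding genes was mostly lower in DM-aKG. Of 28 tested chaperones and folding enzymes (30 listed), 18 were lower, 1 higher and 9 did not pass, so that 64.3% were lower against 24.7% of all tested genes; the median was -0.28 against 0.02. Pdia5, a disulfide isomerase, fell from 11.01 ± 0.202 to 4.54 ± 0.613 RPKM (adjusted p = 4.28e-05, limma). Txndc5, another thioredoxin-domain enzyme, fell from 67.0 ± 1.01 to 44.5 ± 2.31 RPKM, and the prolyl isomerase gene Ppib from 172 ± 4.18 to 123 ± 3.63 RPKM. Hspa5, the gene of the central ER chaperone BiP, was at 267, 246 and 253 RPKM in the controls and at 224, 239.9 and 225 RPKM in DM-aKG. Its log2 fold change was -0.15 ± 0.05 (adjusted p = 0.0315, limma; 0.0125 to 0.111 over 18 alternatives). The call did not hold with control replicate 1 left out (0.111), nor with control replicate 3 (0.0860) or DM-aKG replicate 3 (0.0894) left out. It was also lost with no filter on low values (0.0545), with an equal RPKM sum (0.0887) and with the replicate number as a block (0.0696). Dnajb9, a BiP cochaperone and XBP1 target, fell by 0.25 ± 0.07 (adjusted p = 0.0192, limma; 0.00572 to 0.0641 over 18 alternatives), a call lost without DM-aKG replicate 3 (0.0641). The gene that was higher was the oxidase Ero1l, with overlapping groups, and it was not called without control replicate 1 or 3 or DM-aKG replicate 2 or 3, or with no filter on low values.

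**Figure D4:**
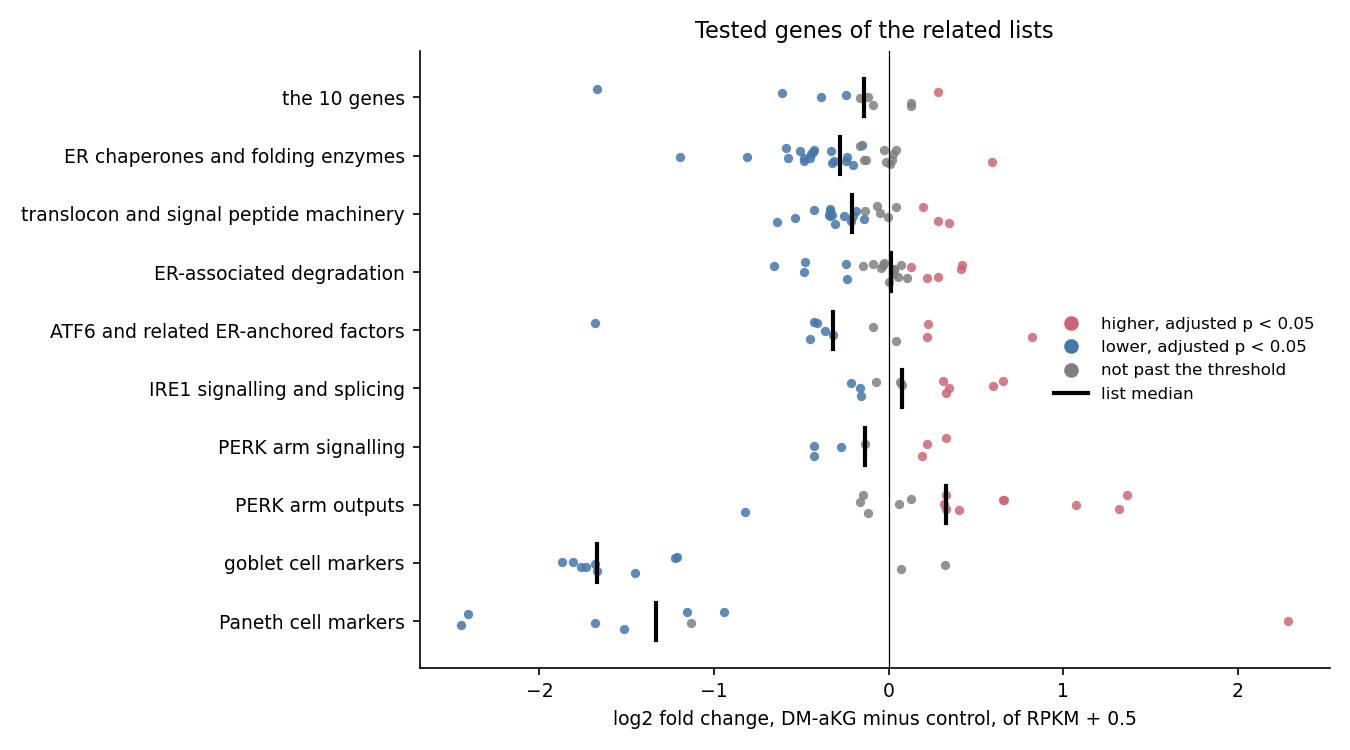
log2 fold change of every tested gene (points; horizontal axis, DM-aKG minus control) in the 10 genes and in 9 lists, with the list median as a black bar and colours for the limma call. The medians are -0.28 for chaperones and folding enzymes, -0.21 for the translocon, 0.02 for ER-associated degradation and 0.33 for the outputs of PERK.

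Genes of protein entry into the ER were mostly lower as well. Of 22 in the translocon and signal peptide list, 14 were lower (63.6%, against 24.7% of all tested genes), 3 higher (13.6%, against 30.9%) and 5 did not pass, with a median of -0.21. The signal peptidase subunit gene Spcs2 fell from 54.6 ± 1.24 to 34.95 ± 1.61 RPKM (adjusted p = 4.05e-05, limma), the translocon subunit gene Sec61b from 95.1 ± 3.78 to 65.3 ± 3.51 RPKM and Spcs3 from 42.5 ± 1.23 to 33.5 ± 0.693 RPKM. The 3 that were higher, Srp14, Srp68 and Srp72, encode subunits of the signal recognition particle, which acts in the cytosol; another subunit gene, Srp9, was among the lower ones. Summed goblet, Paneth and stem cell marker levels moved in the same direction as these lists, and their part in it was not tested.

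The list of ER-associated degradation held calls in both directions, in shares no larger than the background. Of 22 tested genes (23 listed), 5 were higher (22.7%, against 30.9% of all tested genes), 5 lower (22.7%, against 24.7%) and 12 did not pass, with a median of 0.02 as over all genes. Edem2, a relative of Edem1 that trims mannose from misfolded glycoproteins, fell from 26.4 ± 0.627 to 16.6 ± 0.835 RPKM (adjusted p = 4.51e-05, limma), and the lectin gene Os9 from 35.0 ± 0.416 to 25.0 ± 0.704 RPKM. Among those that were higher were Vcp and Nploc4, whose products pull proteins out of the membrane, the conjugating enzyme gene Ube2g2 and Herpud2.

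Genes induced downstream of PERK and ATF4 were mostly higher. Of 15 tested, 9 were higher (60%, against 30.9% of all tested genes), 1 lower (Ddit4) and 5 did not pass, with a median of 0.33 against 0.02. The 5 that did not pass were Ppp1r15a, Atf3, Nupr1, Atf5 and Herpud1. The count of lower genes was 0 without control replicate 2, without DM-aKG replicate 2 or 3 and with robust variance, and 2 without DM-aKG replicate 1, with array weights and with control replicate 2 and DM-aKG replicate 1 both left out. ATF4 is also made through other eIF2 alpha kinases, so the list is not particular to ER stress, and Herpud1 stands in it too. Atf4 itself was at 109, 129 and 104 RPKM in the controls and at 159, 144 and 148 RPKM in DM-aKG, and it rose by 0.40 ± 0.08 (adjusted p = 0.00436, limma). Sesn2, a brake on mTORC1, rose from 7.19 ± 1.26 to 19.2 ± 1.40 RPKM (adjusted p = 7.45e-05, limma), the asparagine synthetase gene Asns from 127 ± 2.39 to 159.8 ± 2.24 RPKM and Cebpb from 11.8 ± 1.32 to 18.9 ± 2.02 RPKM. Ddit3, the gene of the stress factor CHOP, was at 17.6, 29.0 and 17.1 RPKM in the controls and at 30.7, 33.8 and 33.7 RPKM in DM-aKG. It rose by 0.66 ± 0.18 (adjusted p = 0.0161, limma; 1.49e-06 to 0.0591 over 18 alternatives), a call lost without control replicate 1 (0.0587) or 3 (0.0591) or DM-aKG replicate 2 (0.0520). Control replicate 2, the library with the highest Herpud1, was also the highest control for Atf4 and Ddit3. Without it 11 genes of the list were higher.

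The remaining lists of the 3 arms had members in each direction. The shares that were higher were 42.9% for eIF2 alpha and genes that act on it, 27.3% around ATF6 and 45.5% in IRE1 signalling, against 30.9% of all tested genes. The shares that were lower were 42.9%, 54.5% and 27.3% in the same order, against 24.7%. The first list held 7 genes, Eif2s1 for eIF2 alpha itself and genes that act on it. Of these, 3 were higher, Eif2s1 among them, and 3 lower. The phosphatase cofactor gene Ppp1r15b rose from 37.1 ± 1.5 to 46.6 ± 1.89 RPKM. Ppp1cc, a catalytic subunit, fell from 104 ± 2.10 to 77.5 ± 4.11 RPKM, as did Dnajc3, an inhibitor of PERK, from 23.0 ± 1.28 to 17.0 ± 1.46 RPKM. Of 11 genes around ATF6, 3 were higher and 6 lower. Creb3l4, an ER-anchored factor that also stands in the goblet list, fell from 3.09 ± 0.429 to 0.640 ± 0.308 RPKM (adjusted p = 2.76e-04, limma). Like Ern2 it passed the filter only through the controls, so it had to differ and its test is no support. It is nevertheless counted in the share that was lower. Creb3l1 fell from 5.87 ± 0.0503 to 4.17 ± 0.0751 RPKM. Creb3l3, a relative active in lipid metabolism, rose from 13.9 ± 1.40 to 24.8 ± 1.02 RPKM (adjusted p = 1.08e-04, limma). Atf6b, the paralogue of Atf6, did not pass, with 17.0 ± 0.125 RPKM in the controls against 17.6 ± 1.42 RPKM (adjusted p = 0.552, limma). Of 11 genes of IRE1 signalling, 5 were higher and 3 lower. The kinase gene Map3k5 rose from 3.98 ± 0.106 to 6.28 ± 0.150 RPKM, the apoptosis effector gene Bax from 44.9 ± 0.844 to 71.0 ± 2.52 RPKM and Usp14 from 20.8 ± 0.853 to 26.5 ± 0.276 RPKM.

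Of 7 transcripts listed as cleaved by IRE1 in other cells, 3 passed the filter and these 3 were lower, where 24.7% of all tested genes were. Galnt10 fell from 5.44 ± 0.288 to 3.80 ± 0.0346 RPKM and Bloc1s1 from 26.01 ± 2.0 to 21.0 ± 0.537 RPKM. The log2 fold change of Hgsnat was -0.15 ± 0.05 (adjusted p = 0.0290, limma; 0.00433 to 0.104 over 18 alternatives). That call did not hold with control replicate 1 (0.0786), control replicate 3 (0.104) or DM-aKG replicate 2 (0.0866) left out, or with an equal RPKM sum (0.103). The other 4 were at most at 0.70 RPKM in any library. Among them Pdgfrb was higher in DM-aKG, at 0.527 ± 0.25 RPKM against 0.123 ± 0.0379 RPKM without overlap, and with no filter on low values 1 gene of the list was called higher.

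Genes were also grouped by sequence, through the ERSE in the 250 bases before their start. Of 28 such genes in the table, 11 were tested: 6 were lower (all tested genes: 24.7%), 2 higher (all tested genes: 30.9%) and 3 did not pass, with a median log2 fold change of -0.15 against 0.02 over all tested genes. The matches are shown in the direction of the motif, with its fixed letters in capitals and the free bases in lower case, to show what these promoters share and where they differ.
Hspa5: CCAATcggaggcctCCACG
Hsp90b1, farther match: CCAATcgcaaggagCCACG
Hsp90b1, nearer match: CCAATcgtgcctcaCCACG
Calr: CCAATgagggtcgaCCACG
Pdia6: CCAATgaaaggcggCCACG
Dnajc3: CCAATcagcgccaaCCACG
Canx: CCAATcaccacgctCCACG
Syvn1: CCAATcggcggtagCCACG
Hnrnpa3: CCAATggcgagagcCCACG
Pan2: CCAATcagcgggggCCACG
Creld2 and Alg12, shared: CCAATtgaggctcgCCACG
The 6 that were lower were Hspa5, Hsp90b1, Calr, Pdia6, Dnajc3 and Canx, all in the chaperone list above. The ER chaperone gene Hsp90b1, with a match on each strand, had a log2 fold change of -0.49 ± 0.05 (adjusted p = 2.33e-04, limma), and Pdia6 one of -0.44 ± 0.05. Creld2 and Alg12 lie head to head and share the match at chr15:88819520-88819538. Alg12, a mannosyltransferase of glycan assembly, rose from 4.42 ± 0.411 to 5.30 ± 0.298 RPKM (adjusted p = 0.0278, limma), while Creld2 did not pass; Pan2, a deadenylase subunit gene, was the other that was higher. Syvn1, the ubiquitin ligase HRD1, was at 13.1 ± 1.42 and 13.3 ± 0.535 RPKM (adjusted p = 0.779, limma). For ERSE-II, 6 genes were tested, of which 1 was higher, 2 lower and 3, Herpud1 among them, did not pass. For the UPRE core, 72 were tested, with 17 higher, 17 lower and a median of -0.01.

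On GRCm38, by GENCODE M21, all 10 are protein-coding genes. Ern1 lies at chr11:106394650-106487852 (minus strand), Ern2 at chr7:122169893-122186207 (minus), Atf6 at chr1:170704674-170867771 (minus) and Eif2ak3 at chr6:70844515-70905245 (plus). Xbp1 lies at chr11:5520659-5525893 (plus), Herpud1 at chr8:94386438-94395377 (plus) and Sdf2l1 at chr16:17130138-17132383 (minus). Manf lies at chr9:106838312-106891979 (minus), Creld2 at chr15:88819646-88826683 (plus) and Edem1 at chr6:108828641-108859356 (plus). Apart from Manf, exons of Eif2ak3 share 485 bases (8.05%) with the gene model Gm43292 on the other strand.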

How the data were processed

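The authors deposited RPKM for 24956 genes and 6 libraries, a value that divides reads by gene length and library size. CASAVA 1.8, HISAT2 2.0.4, Partek and mm10 were used, per the submitters' processing notes; their roles, the annotation, the strand setting and the treatment of reads with several matches are not stated there or in the labels. Columns were matched to samples by title. Values were analysed as log2(RPKM + 0.5) for the 10852 genes with a mean of at least 1 RPKM (14104 were below, 6613 of them at 0 everywhere), which understates the change of low genes. limma 3.58.1 in R 4.3.3 (lmFit, eBayes with trend, two-sided) compared the groups without the replicate number. Benjamini-Hochberg adjustment covered every tested gene.

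The genes and lists were chosen with earlier results of these data known. Named genes were the 10, up to 3 of each pathway list with the smallest p, and Hspa5, Atf4, Ddit3, Dnajb9, Atf6b, Agr2, Muc2, Tff3, Atoh1 and Lyz1; others were named after their values were seen, and 1 gene that the rule names is not reported here. Depth was read from short genes (miRNA and snoRNA, up to 150 bases), as the one that put most values at 1 read (34 to 55 per library); among their other values up to 5 reads, 75.0% to 85.0% were then whole within 0.05 reads. The fit was tested on simulated data, where 24% of added changes of 0.25 on the log2 scale were called. The share was 76% for changes of 0.5, 94% for 1 and 96% for 2. Whether these shares hold for the measured libraries, where 55.6% of all tested genes were called, was not tested. A gene that did not pass may still differ by a small amount. The 18 alternatives varied pseudocount, filter, scaling, variance model, replicate block and libraries. Python 3.11.15 was used for sequences and tables.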

Additional observations from a re-analysis of the deposited data

How the results depend on the processing

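Across 18 alternatives (17 for Ern2, which a minimum of 3 RPKM removes), the directions of the 10 genes and the calls of Ern1, Ern2, Xbp1, Sdf2l1 and Manf held. Where the filter was applied, the call of Ern2 is no support, since it passed only through the controls. Of 179 values, 12 were calls gained by the other 5 genes. The count of higher genes among the 10 was 2 with an equal RPKM sum, 3 with array weights and 2 without control replicate 2 and DM-aKG replicate 1 together; leaving out 1 library gave 1 to 2 (2 without control replicate 2, where Herpud1 was added). The cause was not tested. The count of lower genes was 3 to 6. Leaving out 1 library gave 2689 to 3674 higher and 2059 to 3188 lower genes over the table. The log2 difference of Atf6b, never called, changed sign with median centring (-0.0041), quantile normalization (-0.0186) and without DM-aKG replicate 1 and control replicate 2 together (-0.0202); leaving out 1 library gave -0.0179 (without DM-aKG replicate 1) to 0.0910. Of 684 counts over lists under the alternatives, 647 stayed within 1.5 times the main count. Replicate numbers did not pair the libraries: deviations from the group means correlated at -0.08, -0.11 and 0.01 for equal numbers across genes, and 0 of 6 libraries correlated best with its own number. With the replicate block, 3206 genes were higher and 2542 lower, the counts among the 10 genes were 1 and 4, and Hspa5 was not called (limma, adjusted p = 0.0696). About 58.1 reads stand behind the lowest Ern2 value, which limits its precision.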

Other observations

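Other epithelial marker lists moved in several directions in the same libraries. Over all tested genes 30.9% were higher and 24.7% lower. All 10 stem cell markers were tested, and 8 were lower in DM-aKG (80%) and 0 higher (median log2 fold change -0.68). Their summed levels were 636 to 702 RPKM in the controls and 299 to 377 RPKM in DM-aKG. Of 8 tested Paneth markers, 6 were lower (75%) and 1 higher (12.5%), with a median of -1.33. The higher one, Pla2g2a, was at 0.25 ± 0.14 RPKM in control and 3.57 ± 2.06 RPKM in DM-aKG. It passed the filter only through DM-aKG, so it had to be higher and its test is no support. Of 11 tested enteroendocrine markers, 6 were higher (54.5%) and 1 lower (9.09%), with a median of 0.33. Of 12 enterocyte markers, 5 were higher (41.7%) and 4 lower (33.3%), with a median of 0.01. The part of these cell types in the results on ER stress genes was not tested.

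Likeness to a gene was measured as the root mean square difference of log2 deviations from the control mean over the 6 libraries, a description in which all genes share the same libraries. The genes nearest to Xbp1 were Mtfp1 (0.0137), Wdr82 (0.0183) and Zfp369 (0.0194). Nearest to Ern2 were Tead2 (0.114), Ttr (0.115) and Adh6a (0.124), and nearest to Sdf2l1 were Neto2 (0.0476), Isoc2b (0.0561) and Trappc6a (0.0665).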
